A study of Bos taurus with 8 samples.

Results

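The cytosolic ribosomal protein genes, which encode the proteins of both ribosomal subunits in the cytoplasm, were examined in bovine whole blood kept with or without a phenolic extract of cowpea leaf. Members were taken by gene symbol: names that begin with RPL or RPS and a digit, RPLP0 to RPLP2 and RPSA, without the RPS6 kinases. The rule found 85 of the 16966 gene symbols on the array, with 314 probes (1 to 8 per gene, median 3). Of the 85, 45 belong to the large subunit, 31 to the small subunit and 8 are paralogs of a ribosomal protein gene. RPS19BP1, which encodes a protein that binds RPS19, shares only the symbol. The CPE group is blood that received the extract at 10 µg/ml, and the CONTROL group is untreated blood. Both were incubated for 30 min at 37 °C under 5% CO2, and both came from female Holstein Friesian cows (n = 5) at the end of 60 days on a probiotic. The comparison asks which transcripts differ after contact with the extract, by hybridising Cy3-labelled RNA to single-colour arrays, 4 per group.

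A ribosome is built from ribosomal RNA and a fixed set of proteins, and cells need the proteins of a subunit in matching amounts. Vertebrate ribosomal protein transcripts begin with a pyrimidine tract through which translation of the whole class is controlled together, and they are among the most abundant messengers of lymphocytes. RPLP0, RPLP1 and RPLP2 form the stalk of the large subunit, where the elongation factors act. RPL5, RPL11, RPL22, RPL13A, RPS3, RPS6, RPS14 and RPS19 are known, mostly from human cells and mice, for roles outside the ribosome or for diseases of ribosome assembly.

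Large parts of every array were dim, and the results below rest on the part that was bright on all 8 arrays, called the lit area. A spot was counted as lit where the 90th percentile of raw brightness over its 61 nearest spots lay within 1.5 log2 units of the 90th percentile of that measure on the array. On CPE arrays 43.1% to 50.2% of spots were lit, on CONTROL arrays 31.9% to 40.7%, and 13080 spots (29.9%) were lit on all 8. The 75th percentile of processed signal was 134 to 280 intensity units on CPE arrays and 53.1 to 149 on CONTROL arrays. CPE array 3 stood apart, because its processed signal alone had been multiplied by a spatial correction of the scanner software. On spots lit on all 8 arrays that correction ran from −2.10 to 0.33 log2 units (1st to 99th percentile), and it was 0 on the 7 other arrays. The counts and the main changes are therefore also given for the background-subtracted signal, which lacks the correction. In that signal, the correlation of levels between CPE arrays was 0.991 to 0.998, compared with 0.970 to 0.998 for the processed signal. Because RNA was pooled within the groups, arrays of one group may repeat one pool, and a p measures array-to-array spread that may be technical. The CPE arrays lay on one slide and the CONTROL arrays on another, with separate scan times and versions of the spot grid, so slide and treatment cannot be told apart. Transcripts that mark the cells of blood (HBB, CD3E, CD79A, CSF3R, CD14 and NKG7) were well above background on all 8 arrays. In bulk blood, fewer cells of a type and less RNA per cell cannot be told apart.

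Ribosomal protein genes are measured by several short probes of 60 bases that can overlap or match a relative, so the probes that the results turn on are shown first. The sequences are those listed with the authors' deposited group averages. The pair of RPL9 probes below covers much of the same stretch of the transcript, and capitals mark the 43 bases they share:
RPL9 A_73_P102436: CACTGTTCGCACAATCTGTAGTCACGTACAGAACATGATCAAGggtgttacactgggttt
RPL9 A_73_P087476: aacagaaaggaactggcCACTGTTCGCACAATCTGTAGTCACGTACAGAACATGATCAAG
The next pair is the single case of 2 members sharing at least 25 bases. Capitals mark the 40 bases common to the probe of RPS4Y1, a paralog, and a probe of RPS4X:
RPS4Y1 A_73_P161427: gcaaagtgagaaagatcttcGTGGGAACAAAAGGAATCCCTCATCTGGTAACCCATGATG
RPS4X A_73_P349316: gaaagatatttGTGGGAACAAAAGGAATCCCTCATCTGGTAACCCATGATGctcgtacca
Another pair, both filed under RPL10, reads opposite strands, and capitals mark the 49 bases of each that are the reverse complement of the other. The first of them has no transcript accession:
RPL10 A_73_P098936: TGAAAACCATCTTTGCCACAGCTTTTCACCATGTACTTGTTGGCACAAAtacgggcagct
RPL10 A_73_P099911: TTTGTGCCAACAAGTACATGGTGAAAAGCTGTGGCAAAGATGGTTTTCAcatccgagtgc
Probes of the largest rises, of the stalk and of genes whose probes disagreed are given in lower case, with no shared run marked:
RPS21 A_73_P328276: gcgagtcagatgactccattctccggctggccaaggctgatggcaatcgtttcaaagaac
RPS25 A_73_P066586: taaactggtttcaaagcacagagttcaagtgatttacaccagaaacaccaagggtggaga
RPLP0 A_73_P099881: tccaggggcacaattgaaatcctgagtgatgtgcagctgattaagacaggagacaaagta
RPS2 A_73_P100101: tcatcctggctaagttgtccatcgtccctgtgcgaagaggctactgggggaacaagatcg
RPL13A A_73_P299481: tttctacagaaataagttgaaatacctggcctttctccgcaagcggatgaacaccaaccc
RPS6 A_73_P494593: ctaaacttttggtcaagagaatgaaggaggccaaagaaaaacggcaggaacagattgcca

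Most of the ribosomal protein genes that could be measured in the lit area read higher in CPE, by small amounts. Of 55 members tested there, 34 rose, 2 fell and 19 did not pass the test (limma, Benjamini-Hochberg adjusted p under 0.05 over all probes tested). Across all 4840 genes tested, 23.9% were higher and 23.4% lower. The median log2 change, CPE minus CONTROL, was 0.33 over the members and 0.021 over all genes. Of the 55 members, 3 were at least 2-fold higher (RPS21 and RPS25 of the small subunit and the paralog RPL22L1), as were 174 of the 4840 genes (3.6%). The CPE and CONTROL arrays did not overlap in 35 members and in 49.4% of all genes. In the background-subtracted signal 40 members rose and 0 fell, compared with 36.7% of all genes higher and 19.4% lower, and the medians were 0.41 over the members and 0.14 over all genes. In that signal the unadjusted p was under 0.05, in either direction, for 45 of the 55 members and 2976 of the 4840 genes. All 34 members called higher with the processed signal were also higher with the background-subtracted signal. Without CPE array 3, the processed signal gave 37 rises and 1 fall, when 1342 of all genes were higher and 1338 lower. The count depended on the scaling: 20 members rose and 6 fell with quantile normalisation (median 0.16), 17 rose with normexp background correction (median 0.24) and 4 with no scaling (median 0.15), when 1080, 654 and 195 of all genes were higher.

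**Figure D1:**
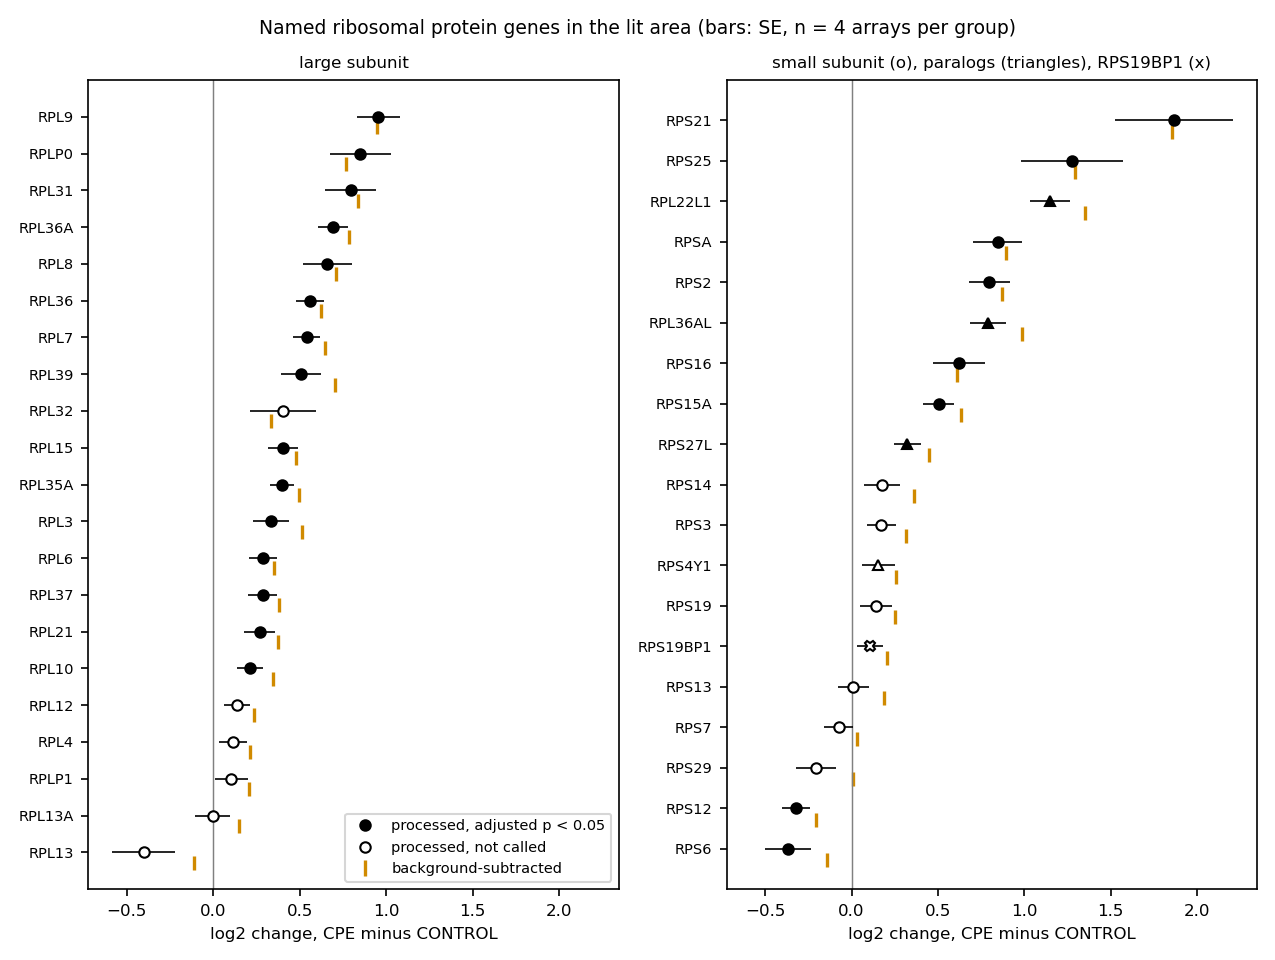
Log2 change (CPE minus CONTROL) of the 40 named ribosomal protein genes tested in the lit area, large subunit left, small subunit, paralogs and RPS19BP1 right. Points and bars are the change and SE of the processed signal (4 arrays per group, 3 CONTROL arrays for RPL32), filled where the adjusted p is under 0.05, and orange ticks are the background-subtracted signal. RPS21 lies farthest right at 1.87, and RPL13 (−0.40) and RPS6 (−0.37) farthest left.

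Counts were taken by subunit, and no test of a difference between the subunits was made. In the large subunit 22 of 30 tested genes rose and 0 fell (limma, with an unadjusted p under 0.05 for the same number, 22), with a median log2 change of 0.38. In the small subunit 9 of 20 rose and 2 fell, with a median of 0.17. Among the paralogs 3 of 4 rose, with a median of 0.55. The background-subtracted signal gave 25 of 30 rises in the large subunit (median 0.47), 12 of 20 in the small subunit (median 0.33) and 0 falls in both. By the mean scaled signal of the probe that represents a gene, 53 of the 55 members lay in the top 10%. Signal also depends on the affinity of a probe, so this is no ranking of abundance and serves only to set the members beside genes of like signal. The 431 other genes there had a median change of 0.052 and 25.3% of them were higher, whereas the 53 members had a median of 0.34, with 33 higher and 2 lower. By the background-subtracted signal the other genes of the top 10% had a median of 0.16 and 38.5% were higher, and the members had a median of 0.41, with 39 higher.

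Among the large subunit genes RPL9, a protein near the base of the stalk, rose most. Levels are given as log2 processed signal minus the 75th percentile of lit probes on the same array, in the order of arrays 1 to 4, and are compared only within a probe. At its brighter probe RPL9 read 6.81, 6.80, 7.27 and 6.85 on CPE arrays, against 5.93, 6.03, 6.12 and 5.83 on CONTROL arrays. The groups did not overlap, and CPE array 3 was the highest. The mean was 6.93 ± 0.23 (SD) on the 4 CPE arrays and 5.98 ± 0.12 on the 4 CONTROL arrays, a 1.94-fold rise (log2 0.95, SE 0.12, limma adjusted p = 0.000401). At the second probe, which shares the 43 bases shown above, RPL9 read 6.65, 6.86, 6.67 and 6.72 on CPE arrays and 5.93, 5.97, 6.04 and 6.17 on CONTROL arrays. Every CPE array again exceeded every CONTROL array, with a log2 change of 0.70 (limma adjusted p = 0.000297). The background-subtracted signal gave 0.94 and 0.81 at the 2 probes.

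RPL31, which lies near the exit of the peptide tunnel, read 8.07, 8.23, 8.42 and 8.12 on CPE arrays, against 7.49, 7.52, 7.64 and 7.01 on CONTROL arrays. CONTROL array 4 was the lowest, and the groups did not overlap (log2 0.80, SE 0.15, limma adjusted p = 0.00243). RPL36A, a small zinc-binding protein of the large subunit, read 5.62, 5.37, 5.69 and 5.59 on CPE arrays and 4.83, 4.90, 4.91 and 4.84 on CONTROL arrays. The 4 CONTROL arrays lay close together below all CPE arrays (log2 0.69, SE 0.09, limma adjusted p = 0.000324). RPL8, which contacts the catalytic centre of the ribosome, read 6.46, 6.84, 7.11 and 6.79 on CPE arrays and 6.06, 6.10, 6.05 and 6.36 on CONTROL arrays. CPE array 1 came nearest to CONTROL array 4, without overlap (log2 0.66, SE 0.14, limma adjusted p = 0.00503). In the background-subtracted signal RPL31 rose by 0.84, RPL36A by 0.78 and RPL8 by 0.71.

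The stalk genes were read one by one, and no test of a difference between them was made. RPLP0, the stalk's scaffold, read 7.44, 7.62, 8.18 and 7.59 on CPE arrays at its brightest probe, against 6.95, 6.83, 7.11 and 6.55 on CONTROL arrays. The groups did not overlap, and CPE array 3 was the highest. The background-subtracted signal, on its own scale, read 7.13 to 7.20 on CPE arrays and 6.09 to 6.67 on CONTROL arrays. The rise was 1.80-fold (log2 0.85, SE 0.18, limma adjusted p = 0.00443) and 0.77 on the log2 scale with the background-subtracted signal. The RPLP0 probe whose sequence is given above rose by 0.99 (limma adjusted p = 0.000329). A probe listed under RPLP0 without an accession read 7.24, 7.19, 7.10 and 7.23 on CPE arrays and 7.17, 7.20, 7.20 and 7.43 on CONTROL arrays. Its groups overlapped (log2 −0.059, limma adjusted p = 0.593), although it shares 52 bases with the brightest probe. RPLP1, an acidic stalk protein, read 7.16, 7.31, 7.30 and 7.26 on CPE arrays and 7.02, 7.11, 7.11 and 7.37 on CONTROL arrays. CONTROL array 4 was the highest of the 8, and the change was 0.10 (SE 0.09, limma adjusted p = 0.390). RPLP2, its partner, had 5 probes, of which none was lit on a CONTROL array, so it was not tested in the lit area.

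In the small subunit, the largest rise of all members was that of RPS21, a small protein on the solvent side of the subunit. RPS21 read 7.19, 7.34, 7.68 and 7.08 on CPE arrays, against 5.95, 5.90, 5.64 and 4.32 on CONTROL arrays. CONTROL array 4 was far below the others, and the groups did not overlap without it either. The mean was 7.32 ± 0.26 (SD) on the 4 CPE arrays and 5.46 ± 0.77 on the 4 CONTROL arrays, a 3.64-fold rise (log2 1.87, SE 0.34, limma adjusted p = 0.00227). The change was 1.85 with the background-subtracted signal and 1.49 without CONTROL array 4. On that array the 60 nearest other lit spots also read low, 1.09 below their mean over the 8 arrays, and with each array centred on its lit neighbours the change of RPS21 was 1.26. The same centring of the background-subtracted signal gave 1.05, the lowest value of RPS21 over the settings.

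RPS25, known from human cells for its part in initiation from internal entry sites of viral RNAs, showed a similar pattern over the arrays. It read 6.80, 7.05, 7.10 and 6.64 on CPE arrays, against 5.99, 5.99, 5.87 and 4.63 on CONTROL arrays. CONTROL array 4 was again far below the rest, beside neighbours that were 1.07 below their mean. The rise was 2.42-fold (log2 1.28, SE 0.30, limma adjusted p = 0.00729), 1.29 with the background-subtracted signal, 0.95 without CONTROL array 4 and 0.69 with local centring. Over all settings the lowest change of RPS25 was 0.50. The RPS21 and RPS25 probes thus lay among spots that differed between the groups in the same direction, by 0.59 and 0.56 in the median of the 60 nearest other lit spots.

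**Figure D2:**
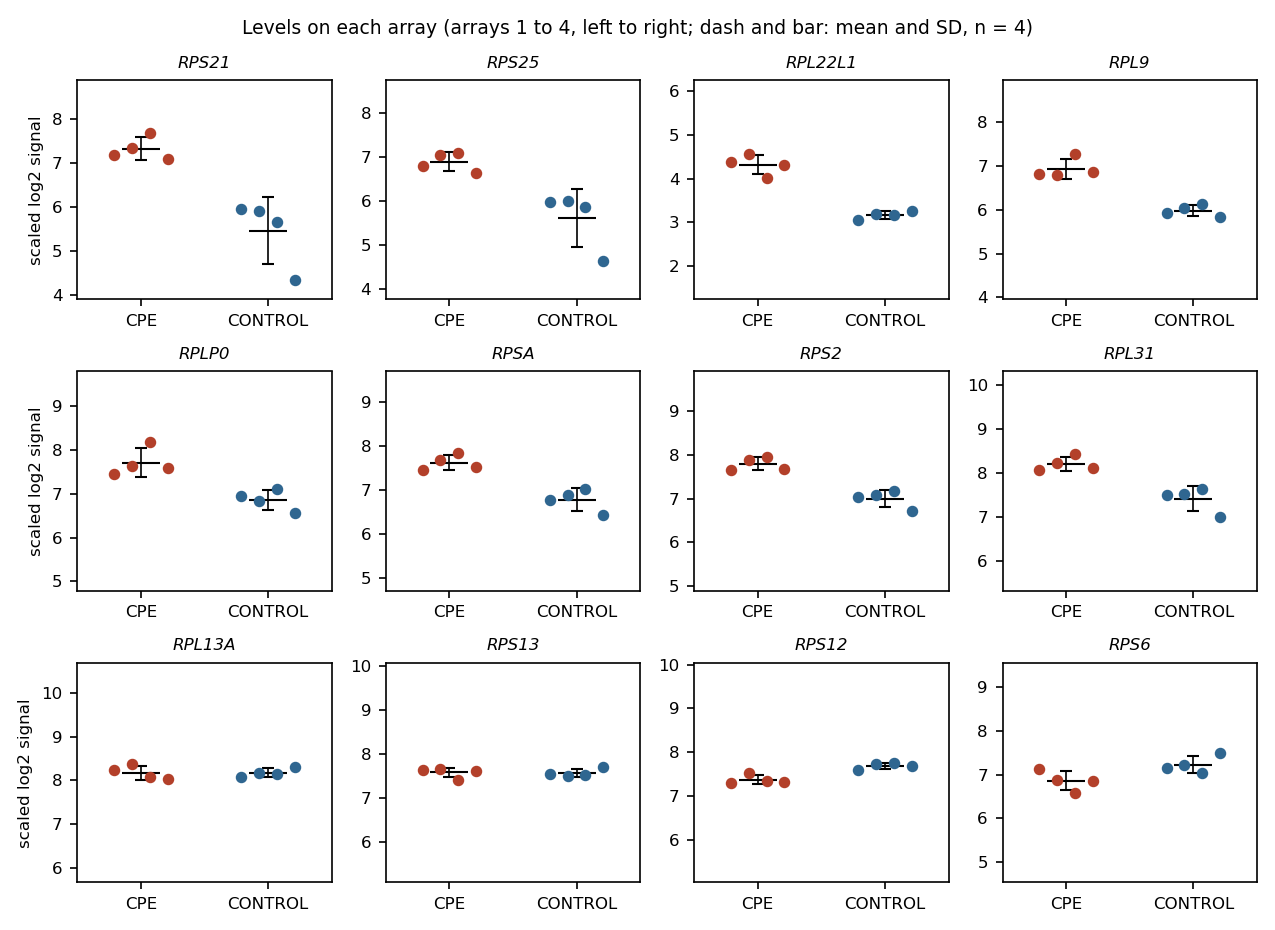
Level of 12 ribosomal protein genes on each array at the probe that represents the gene, as log2 processed signal minus the array's 75th percentile of lit probes. CPE arrays stand left and CONTROL arrays right, each in the order 1 to 4, and dashes and bars are the mean and SD (n = 4). In RPS21 and RPS25 CONTROL array 4 lies at 4.32 and 4.63, below the other CONTROL arrays, and in RPL13A and RPS13 the groups overlap.

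RPSA, which also serves as a receptor for laminin at the cell surface, read 7.46, 7.67, 7.83 and 7.51 on CPE arrays and 6.77, 6.88, 7.03 and 6.42 on CONTROL arrays. All CPE arrays were above all CONTROL arrays (log2 0.85, SE 0.14, limma adjusted p = 0.00156). RPS2, a protein of the messenger entry channel, read 7.66, 7.89, 7.94 and 7.68 on CPE arrays and 7.03, 7.08, 7.17 and 6.71 on CONTROL arrays. The groups were again apart (log2 0.80, SE 0.12, limma adjusted p = 0.000846). RPS16, close to the site where tRNA binds, read 7.76, 7.66, 8.27 and 7.69 on CPE arrays and 7.30, 7.30, 7.33 and 6.97 on CONTROL arrays. CPE array 3 was highest and CONTROL array 4 lowest, with no overlap (log2 0.62, SE 0.15, limma adjusted p = 0.00948), and the background-subtracted signal gave 0.61 for RPS16, 0.89 for RPSA and 0.87 for RPS2.

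Among the paralogs RPL22L1 rose most, at a place where its neighbours read lower in CPE by the processed signal. RPL22L1, a close relative of RPL22 that can stand in for it, read 4.38, 4.56, 4.02 and 4.31 on CPE arrays, against 3.05, 3.19, 3.17 and 3.27 on CONTROL arrays. Every CPE array was above every CONTROL array (2.22-fold, log2 1.15, SE 0.12, limma adjusted p = 0.000115). In the processed signal its 60 nearest other lit spots moved the opposite way, by −0.29, and the change was 1.43 with local centring. The background-subtracted signal gave 1.35, and 1.39 with local centring, so centring changed the value little in that signal. A second probe of RPL22L1 rose by 0.57 (limma adjusted p = 0.00348). RPL36AL, a close relative of RPL36A, read 5.47, 5.55, 5.19 and 5.52 on CPE arrays and 4.54, 4.59, 4.65 and 4.80 on CONTROL arrays. The groups did not overlap, and CPE array 3 was the lowest CPE array (log2 0.79, SE 0.10, limma adjusted p = 0.000428). RPS27L, a relative of RPS27 that p53 induces in human cells, rose by 0.32 (SE 0.08, limma adjusted p = 0.00881). By the background-subtracted signal RPL36AL rose by 0.99 and RPS27L by 0.44. RPS4Y1 read 4.85 to 5.00 on CPE arrays and 4.64 to 5.01 on CONTROL arrays, which overlapped (log2 0.15, limma adjusted p = 0.209). That probe shares 40 bases with RPS4X, as shown above, so its signal may hold RNA of either gene. RPS19BP1, the member that is no ribosomal protein, read 0.11 higher, which did not pass (limma adjusted p = 0.268). RPL10L had a lit probe that was not well above background on any CONTROL array, and a lit probe of RPL3L was well above background on 2 CPE arrays and 4 CONTROL arrays, so neither was tested. RPL7L1 and RPL26L1 had no probe lit on all 8 arrays.

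The falls were small and depended on the signal used. RPS12, which is also known in human for snoRNAs encoded in its introns, read 7.31, 7.52, 7.34 and 7.33 on CPE arrays, against 7.60, 7.73, 7.76 and 7.70 on CONTROL arrays. It was the single member that fell with groups that did not overlap (log2 −0.32, SE 0.08, limma adjusted p = 0.0110). The change was −0.21 with the background-subtracted signal, which did not pass (limma adjusted p = 0.0638), and 0.048 with local centring. RPS6, the target of the S6 kinases, read 7.12, 6.88, 6.59 and 6.84 on CPE arrays and 7.16, 7.23, 7.04 and 7.48 on CONTROL arrays. CPE array 1 lay within the CONTROL range, and the fall of 0.37 was close to the threshold (SE 0.13, limma adjusted p = 0.0493). The background-subtracted signal gave −0.14 (limma adjusted p = 0.395), and leaving out any 1 of 6 arrays (CPE 2, 3 or 4, CONTROL 1, 2 or 4) ended the call. At the RPS6 probe printed above the change was 0.12 (limma adjusted p = 0.350).

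The members nearest to 0 were RPL13A, RPS13 and RPS7. RPL13A, known in human myeloid cells for silencing inflammatory transcripts once released from the ribosome, read 8.23, 8.38, 8.07 and 8.02 on CPE arrays and 8.09, 8.17, 8.15 and 8.31 on CONTROL arrays. These ranges overlapped (limma adjusted p = 0.977), whereas its second probe, printed above, rose by 0.57 (SE 0.08, limma adjusted p = 0.000548). RPS13 had a change of 0.0099 (limma adjusted p = 0.935) at its brighter probe and rose by 0.28 (limma adjusted p = 0.00700) at the other. RPS7, which can bind MDM2, read −0.074 (limma adjusted p = 0.494). Of the other genes with roles outside the ribosome, RPS3, also a DNA repair factor, read 0.17 (limma adjusted p = 0.120) at its brighter probe and 0.41 (adjusted p = 0.0122) at the other. RPS19, the gene most often mutated in Diamond-Blackfan anaemia, read 0.14 (limma adjusted p = 0.233) and 0.39 (adjusted p = 0.0325). RPS14, whose loss marks the 5q- syndrome, read 0.18 (limma adjusted p = 0.18) at a probe without an accession. It rose by 0.36 with the background-subtracted signal (limma adjusted p = 0.00434), and it also passed, at 0.26, without CPE array 3. Without CONTROL array 4, RPS3 (0.22), RPS19 (0.21) and RPS4Y1 (0.23) passed as well. RPL5 and RPL11, which bind MDM2 together with 5S RNA, and RPL22, a partner of lymphocyte development in mice, had no probe lit on all 8 arrays.

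Different probes filed under a gene symbol were set beside each other. Of the 86 member probes tested, 53 rose and 3 fell, compared with 22.9% and 25.5% of all 7219 probes tested. In 23 genes at least 2 probes were tested, 54 probes in all. Every tested probe rose in 8 of these genes (RPL10, RPL21, RPL22L1, RPL3, RPL35A, RPL39, RPL7 and RPL9), some but not all in 12, and none in 3. RPL10 stands among the 8 only through the probe of the opposite strand printed above, which has no accession, and without that gene the number was 7 of 22. In no gene did 1 probe rise and another fall. The spread between the probes of a gene had a median of 0.43 on the log2 scale and reached 1.04 in RPLP0, which is larger than the median change of the members. With the background-subtracted signal 14 genes (RPL10 among them) had every tested probe higher, 7 some and 2 none, and the median spread was 0.32. By that signal 66 member probes rose and 1 fell, compared with 35.4% and 21.3% of all probes.

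The probes of several core large subunit genes rose by unequal amounts. RPL3, which lies next to the catalytic centre, rose by 0.34, 0.88 and 0.69 at 3 probes. RPL7 rose by 0.54, 0.28 and 0.81, and RPL39, at the mouth of the peptide tunnel, by 0.51 and 0.94. RPL4, which lines that tunnel, read 0.12 (limma adjusted p = 0.269) at 1 probe and rose by 0.65 at another. RPL6 rose by 0.29 and 0.73 at 2 probes and read 0.19 at both of its others, neither of which passed. RPL10, which joins late in subunit assembly, rose by 0.21 (limma adjusted p = 0.0418) at its brighter probe. The probe of the opposite strand printed above, also filed under RPL10, rose by 0.83 (limma adjusted p = 0.000188). Its strand is opposite to that of an RPL10 probe with an accession, so its value may not be that of the RPL10 messenger. Smaller differences between probes were found in RPL35A (0.40 and 0.46), RPL21 (0.27 and 0.35) and RPL37 (0.29 and 0.32, with 0.24 at a probe that did not pass).

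Other genes had probes on both sides of the threshold. RPL15 rose by 0.40 at its brighter probe and read 0.27 (limma adjusted p = 0.122) at the other. RPL36 rose by 0.56 and read 0.33 (adjusted p = 0.114), and RPS15A rose by 0.50 and read 0.23 (adjusted p = 0.253). The 4 probes of RPL12, a stalk-base protein, ran from −0.061 to 0.39, and 1 of them rose. At RPL13 the probes read −0.40 (limma adjusted p = 0.0946) and 0.28 (adjusted p = 0.301), and both were lowest on CPE array 3 among the CPE arrays. With the background-subtracted signal the second RPL13 probe rose by 0.62. RPS29 read −0.21 (limma adjusted p = 0.163) at its main probe, 0.0066 with the background-subtracted signal. A second RPS29 probe, without an accession, fell by 0.48 (adjusted p = 0.00495), and by 0.32 with the background-subtracted signal (adjusted p = 0.0266). Of the 86 tested probes 7 lacked an accession, of which 1 rose and 1 fell, while 52 of the 79 others rose and 2 fell. Probes that passed by the background-subtracted signal alone also include the brighter probes of RPS3 and RPS19, the second probes of RPL15, RPL36 and RPS15A, a second one of RPL12 and both remaining ones of RPL6, with rises of 0.24 to 0.60.

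Overlapping probes lie at different places on the array. Among the members 76 pairs of probes of 1 gene shared at least 25 bases. In the 10 pairs tested in the lit area on both sides, the changes differed by a median of 0.24 and by at most 0.91, the RPLP0 pair. In 12 pairs with only 1 probe in the lit area, both tested over the whole array, they differed by a median of 2.60 and by up to 8.36. That largest gap was at RPL12, where a probe outside the lit area read 7.17 higher in CPE and a lit probe sharing 34 bases with it read −1.18.

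The change of a member probe followed that of its surroundings in part. The median change of the 60 nearest other lit spots, taken from the processed signal, correlated with the change of the 86 member probes at r = 0.60. With the background-subtracted change of the member probes r was 0.49. The mean level did not show such a relation (r = −0.033), and GC content gave r = 0.25. These correlations are across probes that share arrays and are given as descriptions. The change of the probe was above that of its 60 neighbours in 82 of 86 member probes (95.3%), compared with 60.3% of all 7219 probes, and the median excess was 0.50 for member probes and 0.13 for all. With each array centred on its lit neighbours, 48 members rose and 2 fell, when 46.4% of all genes were higher and 25.7% lower. The same centring of the background-subtracted signal gave 42 rises and 2 falls, with 37.4% and 32.6% of all genes.

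**Figure D3:**
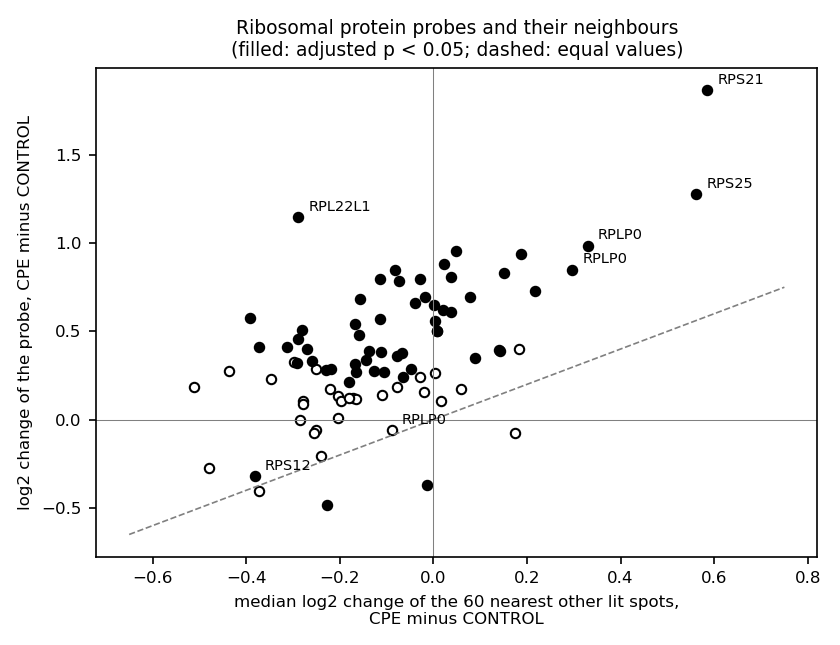
Change of each of the 86 ribosomal protein probes tested in the lit area (vertical) against the median change of the 60 nearest other lit spots (horizontal). Both are in log2 units of the processed signal, CPE minus CONTROL. Filled points have an adjusted p under 0.05 and the dashed line marks equal values. RPS21 and RPS25 lie where the neighbours are 0.59 and 0.56 higher, RPL22L1 where they are 0.29 lower, and 82 of 86 points are above the line.

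Over the whole array, dim areas included, the same genes gave other values, on a scale set by all spots. Where all spots of a probe were lit and had values, only the subtracted percentile differs, which shifts each such change by the same amount. Of 68 members tested, 4 rose and 9 fell, with a median log2 change of −0.77. Of all 6083 genes 1.94% were higher and 34.0% lower, with a median of −1.03. By the background-subtracted signal 7 members rose and 3 fell, compared with 4.65% and 33.0% of all genes. Among the rises were RPLP2 (6.66), RPL27A (4.76) and RPS9 (3.55), and among the falls RPS29 (−1.33), RPS4X (−2.74) and RPS28 (−2.85). By the background-subtracted signal RPLP2, RPL27A and RPS9 passed as well. RPS29, RPS4X and RPS28 did not (limma adjusted p = 0.0738, 0.178 and 0.196), and their groups overlapped by the processed signal. Of the genes named here, RPL27A, RPS9, RPS4X and RPS28 were chosen after their values were seen, as was RPS24, which also fell. None of the 4 rises came from a probe lit on all 8 arrays, and 5 of the 9 falls did: RPS29, RPS24, RPS12, RPS6 and RPL13. On the scale of the lit area these 5 read −0.21, −0.27, −0.32, −0.37 and −0.40, and only RPS12 and RPS6 passed there. The number of falls was 16 without CPE array 4, 4 without CONTROL array 2 or 3, and 0 without CPE array 2. Falls among all genes numbered 3225 without CPE array 4, 797 and 952 without CONTROL array 2 or 3, and 852 without CPE array 2.

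Among the member probes the size of a whole-array value differed by the place of the spots, and shares of all probes by place are not given here. Of 97 member probes lit on all 8 arrays, 84 were tested, 0 rose and 6 fell, with a median of −0.79, compared with 2.13% higher and 36.1% lower among all 9643 probes tested. Of 24 lit on the 4 CPE arrays but dim on some CONTROL arrays, 13 were tested and 5 rose, with a median of 1.17. Of 191 dim on some arrays of both groups, 45 were tested, 14 rose and 9 fell. Large rises of single probes, RPL31 with 8.14, RPL12 with 7.17 and RPLP2 with 6.66, were of the last kind. That RPL31 probe read 8.18, 9.0, 4.87 and 8.66 on CPE arrays and −0.85, −0.92, −0.45 and 0.39 on CONTROL arrays, on the scale of the whole array. The RPL31 probe in the lit area read 10.04, 9.89, 8.93 and 10.48 on CPE arrays and 9.83, 10.16, 10.20 and 10.45 on CONTROL arrays on that scale. The groups were far apart at the first and overlapped at the second (log2 −0.33, limma adjusted p = 0.567). The second is the probe that rose by 0.80 on the scale of the lit area (limma adjusted p = 0.00243), and only the subtracted percentile differs.

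**Figure D4:**
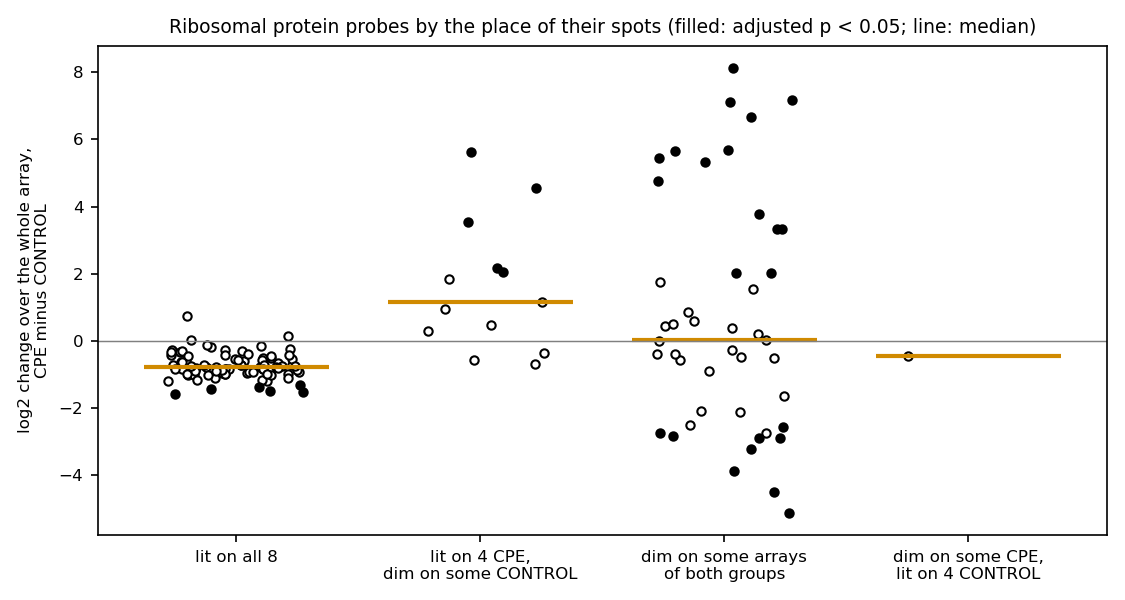
Log2 change over the whole array (CPE minus CONTROL) of the 143 ribosomal protein probes tested there, by whether their spots were lit. Filled points have an adjusted p under 0.05 and lines are medians. Probes lit on all 8 arrays lie in a narrow band around −0.79, and values as far as 8.14 and −5.13 occur where spots were dim on some arrays of both groups.

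Genes outside the lit area could be read only in this way. The RPLP2 probe with the rise of 6.66 read 8.96, 5.35, 8.5 and 8.51 on CPE arrays and 3.45, −0.58, −0.45 and 2.24 on CONTROL arrays. Its groups did not overlap, although none of its spots was lit on a CONTROL array. Another RPLP2 probe, also dim on all CONTROL arrays, rose by 2.02. RPL11 read 5.18, −0.54, 7.76 and 2.65 on CPE arrays and 7.80, 7.88, 8.05 and 1.54 on CONTROL arrays. The arrays of each group ranged over more than the difference between the groups, which was −2.56 (limma adjusted p = 0.0347, and 0.241 with the background-subtracted signal). RPL5 had 5 probes well above background on the 4 CPE arrays, none of which was so on all 4 CONTROL arrays, so it was not tested. RPL22 had 2 probes, neither of which was well above background on a CONTROL array. Of the 85 members, 83 had a probe well above background on all CPE arrays and 71 had one on all CONTROL arrays. Among all spots of the array, 37.8% to 49.9% were well above background on CPE arrays and 26.4% to 37.1% on CONTROL arrays. The 2 counts of members are therefore no result about these genes.

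A pair of members was printed at 4 places on the array with a single probe sequence, so that only the place differed. The RPL32 spot in the lit area read 7.49, 7.45, 8.20 and 7.42 on CPE arrays and 7.24, 7.21 and 7.27 on the 3 CONTROL arrays with a value. CPE array 3 was the highest. On the scale of the background-subtracted signal it read 7.21, within the 6.97 to 7.25 of the other CPE arrays. The change of the spot was 0.40 (SE 0.19, limma adjusted p = 0.117, CONTROL n = 3), and it passed at 0.22 without CPE array 3 and at 0.33 with the background-subtracted signal (limma adjusted p = 0.0205). The 3 other RPL32 spots, in dim places, gave −0.45, 6.97 and 7.51. RPL36AL had 2 spots in the lit area, which gave 0.60 and 0.97, and 2 in dim places, which gave 7.88 and 5.73.

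**Figure D5:**
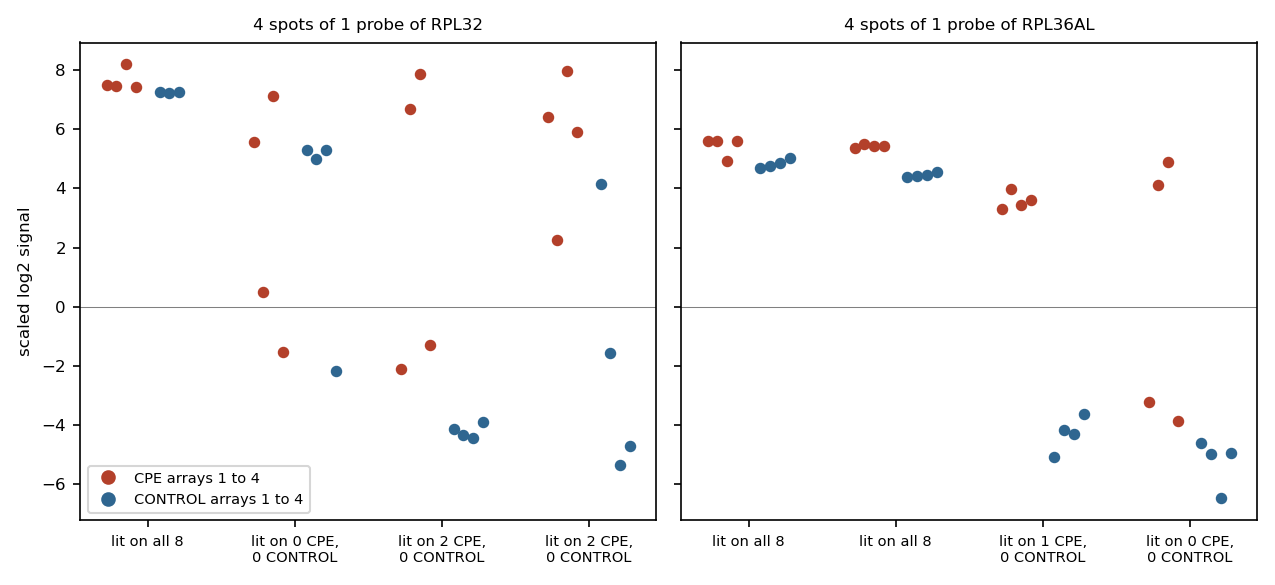
Scaled log2 signal of the 4 spots that carry the same RPL32 probe (left) and the same RPL36AL probe (right), on CPE arrays 1 to 4 and CONTROL arrays 1 to 4, left to right. Spots lit on all 8 arrays lie between 7.21 and 8.20 for RPL32, where CONTROL array 4 has no value. The other spots of the same probe range down to −5.36 for RPL32 and −6.47 for RPL36AL.

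The authors' deposited table holds log2 averages of each group over the whole array. In the authors' deposited table, CPE averages exceeded CONTROL averages at 155 of the 314 member probes, with a median log2 difference of −0.15. Among the member probes the counts differed by the place of the spots: CPE was higher at 6 of the 97 lit on all 8 arrays (median −0.78). It was higher at 19 of 24 that were dim on some CONTROL arrays alone (median 2.10) and at 130 of 191 dim on some arrays of both groups (median 3.34). In the authors' deposited table of all 43653 probes 9328 had a higher CPE average, with a median of −1.05. Shares of all probes by place are not given here, so the counts by place are no result about the members.

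Other genes of protein synthesis were read in the lit area with the same test, and some genes stand in more than one list. Of 3 ribosomal protein genes on the array that the naming rule leaves out, 0 could be tested there. Of 16 further transcripts known to carry the pyrimidine tract, 8 rose and 1 fell (median 0.37). EIF4B, a helper of the initiation helicase, rose by 0.93, EEF1D, an elongation factor subunit, rose by 0.90, and TPT1, a growth-related protein, fell by 0.62. Of 31 ribosome biogenesis genes 12 rose and 1 fell (median 0.23). FBL, the methyltransferase of nucleolar RNA, rose by 0.35 and NOP58, a partner of it, by 0.43, while RRN3 fell by 0.67. Of 38 mitochondrial ribosomal protein genes 16 rose and 0 fell (median 0.28), among them MRPS24 by 1.33. Of 33 translation factor genes 17 rose and 3 fell (median 0.28). EIF3A, a scaffold of initiation, rose by 1.45 and EIF5B, which joins the subunits, by 1.13, while EIF4ENIF1, a transporter of the cap-binding protein, fell by 1.06 and EIF2AK2, a kinase that halts initiation, by 0.65. The background of 23.9% higher and 23.4% lower holds for these lists too. With the background-subtracted signal the rises numbered 10 of 16, 21 of 31, 22 of 38 and 22 of 33, against 36.7% of all genes.

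Markers of blood cell types also differed between the groups in the lit area, and their part in the ribosomal protein values was not tested. Of 10 T cell markers 7 rose and 0 fell (median 0.56), among them CD5 by 1.36 and CD3D, part of the CD3 complex, by 1.04. Their mean level was 0.82 to 0.94 on CPE arrays and 0.013 to 0.14 on CONTROL arrays, with no overlap. Of 6 neutrophil markers 2 rose and 3 fell (median −0.30), and their mean level was 1.68 to 1.75 on CPE arrays and 1.99 to 2.45 on CONTROL arrays. CXCR2 and CSF3R, receptors that define neutrophils, fell by 0.99 and 0.93, and PADI4, an enzyme that citrullinates histones, fell by 0.84. BPI, a granule protein that kills bacteria, rose by 0.43 and S100A12 by 0.24, and FCGR3A read 0.33 (limma adjusted p = 0.0609). By the background-subtracted signal, in which FCGR3A passed, 3 neutrophil markers rose and 3 fell. Of 4 B cell markers none passed (limma, changes of −0.12 to 0.40), with mean levels of 2.08 to 2.44 on CPE arrays and 2.08 to 2.16 on CONTROL arrays. The background-subtracted signal gave rises of 0.26 for CD79B (limma adjusted p = 0.0477) and 0.32 for PAX5 (adjusted p = 0.0288). Of 4 monocyte markers 1 rose and 1 fell (1 and 2 by the background-subtracted signal), with mean levels of 2.49 to 2.64 on CPE arrays and 2.68 to 2.84 on CONTROL arrays. Of 4 NK cell markers 2 rose and 1 fell, with mean levels of 0.35 to 0.52 on CPE arrays and 0.016 to 0.18 on CONTROL arrays. Of 2 red cell markers neither passed, whereas by the background-subtracted signal both rose, HBB by 0.48 (limma adjusted p = 0.00293) and KLF1 by 0.37 (adjusted p = 0.00358). The single platelet marker tested, PPBP, rose by 1.46. Over the whole array, PF4 was well above background on 4 CPE arrays and 0 CONTROL arrays, and HBM on 3 CPE arrays and 0 CONTROL arrays. HBB was so on 4 CPE and 4 CONTROL arrays, and HBA on 4 CPE and 3 CONTROL arrays. Of all spots, 37.8% to 49.9% were well above background on CPE arrays and 26.4% to 37.1% on CONTROL arrays. These counts are therefore no result about platelets or red cells.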

How the data were processed

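Transcript levels were measured on 8 single-colour arrays, 4 of CPE-treated and 4 of untreated blood. Scanner files were deposited with the intensity of each spot, which the authors extracted using Agilent Feature Extraction 10.10.1.1, per the submitters' processing notes. The processed intensity in the deposited files was background-subtracted, and on CPE array 3 also spatially detrended, per the file headers and the values. The deposited table of group averages holds log2 values made by the authors, whose scaling the labels do not state. RNA integrity numbers were above 7 and 0.5 µg of RNA was labelled, per the labels.

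Control spots (1417 per array, beside 43803 others) and spots with an outlier flag (12 to 73 per array) were left out, and 0 spots were saturated. Log2 processed signal minus each array's 75th percentile was averaged over the spots of a probe, using lit spots alone in the lit area. A probe was tested when well above background on all 8 arrays, and a gene is represented by its tested probe with the highest mean. The test was that of limma 3.58.1 under R 4.3.3 (two-sided, empirical Bayes, Benjamini-Hochberg over all probes tested, threshold 0.05), checked on simulated data. The simulated probes were independent of each other, so that check does not cover effects of slide, place on the array or pooling. The number of arrays limits the precision, and depth in counts does not apply. Of 314 member probes 265 have a RefSeq accession, and 264 of these carried the same symbol in the RefSeq table. No positions are printed, since that table is of another build than the probe coordinates.

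Named genes are the 12 largest rises and 8 largest falls whose groups do not overlap, members with at least 2 tested lit probes or with spots in and out of the lit area, the stalk genes and RPSA, paralogs, 8 genes with roles outside the ribosome and the 3 changes nearest 0. The gene lists, the members and the lit area were chosen with earlier results of these data known, and settings with the background-subtracted signal were added after seeing the data. Some results of single members are not reported here. Alternatives were other scalings and filters, normexp on the median spot signal (offset 50; the files hold no mean signal), other limits of the lit area, local centring, the mean over probes, a replicate block, a threshold of 0.01 and leaving out each array.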

Additional observations from a re-analysis of the deposited data

Results flagged for a closer look

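In 79 groups of 4 arrays, the highest or lowest array of a named member was set against the other 3, and in 14 its gap as a share of the group's range exceeded Dixon's critical value for 4 samples. Chance alone gives about 1 such group in 20. Of the 14 arrays, 6 were CPE array 3, the array with the spatial correction, 7 were CONTROL array 4 and 1 was CPE array 2. Their part in the members' changes was not tested beyond the values without each array.

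On CPE array 3, RPL32 read 8.20 (the other CPE arrays 7.42 to 7.49), RPL9 7.27 (6.80 to 6.85), RPS16 8.27 (7.66 to 7.76) and RPL15 8.20 (8.04 to 8.05), all higher than the rest. On the scale of the background-subtracted signal the same array read 7.21 (the other CPE arrays 6.97 to 7.25), 6.53 (6.38 to 6.57), 7.52 (7.24 to 7.52) and 7.79 (7.59 to 7.81) for these genes. RPL3 read 6.86 there (7.19 to 7.24) and RPS13 7.41 (7.61 to 7.65), both lower than the rest.

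On CPE array 2, RPS12 read 7.52 (7.31 to 7.34).

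On CONTROL array 4, RPS25 read 4.63 (the other CONTROL arrays 5.87 to 5.99) and RPS16 6.97 (7.30 to 7.33), both lower. RPS29 read 7.74 (7.49 to 7.51), RPS7 7.90 (7.62 to 7.66), RPL12 7.29 (7.15 to 7.16), RPL8 6.36 (6.05 to 6.10) and RPS14 6.33 (6.14 to 6.17), all higher than the other CONTROL arrays.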

How the results depend on the processing

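In the lit area 34 members rose, 2 fell and the median was 0.33. Rises numbered 20 with quantile normalisation, 17 with normexp and 4 with no scaling, when all genes had 1080, 654 and 195. Falls numbered 6 with quantile normalisation, 0 with normexp, no scaling or a threshold of 0.01, and 1 with a wider neighbourhood or a limit of 2 log2 units. The median was 0.16 with quantile normalisation, 0.15 with no scaling (−0.15 for all genes), 0.24 with normexp, 0.27 with scaling to the brightest probes and 0.43 with local centring. The background-subtracted signal gave 0 falls and a median of 0.41; with quantile normalisation 6 and 0.18; with no scaling 1 fall. Leaving out each array gave 27 to 37 rises, 1 to 2 falls and medians of 0.31 to 0.36, or with the background-subtracted signal 37 to 44 rises, 0 falls and medians of 0.38, 0.39, 0.40, 0.40, 0.43, 0.43, 0.44 and 0.47. Rises among all genes then numbered 905 to 1342, or 1481 to 1849 with the background-subtracted signal. The cause of these shifts was not tested.

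Over the whole array, 4 rises and 9 falls became 0 falls with quantile normalisation, no scaling or normexp, 12 rises and 2 falls with a filter on 1 group, and 7 rises and 3 falls with the background-subtracted signal. The filter on 1 group also admits probes well above background in that group alone, so its added rises are no support. It tested 84 members, and of all 8325 genes 1053 were higher and 1819 lower. Leaving out each array gave 3 to 4 rises and 0 to 16 falls, when 66 to 156 of all genes were higher and 681 to 3225 lower.

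With the replicate number as a block, 30 members rose and 2 fell in the lit area, 15 fell over the whole array, and the background-subtracted signal gave 39 rises, 0 falls and a median of 0.41. All genes then had 1160 rises and 1092 falls, 2992 falls over the whole array, and 1832 rises and 930 falls by the background-subtracted signal. Same-numbered arrays share only a number, with deviations correlated at −0.12, −0.17, 0.29 and 0.41.

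Of 1392 values of named members in 35 settings, 1138 kept their side, 116 lost and 71 gained a call, and 67, in 15 members, changed sign, of which 56 had no call in either setting. The other 11 were RPL10 (−0.089 with quantile normalisation, −0.035 with the background-subtracted signal too), RPLP0 (−0.057 with a wider neighbourhood and −0.026 with a limit of 1, represented there by its other probe), RPL13A (0.27 with local centring, 0.28 as the mean over probes, 0.19 with the background-subtracted signal and local centring, 0.25 with that signal without CPE replicate 4), RPS12 (0.048 with local centring, 0.029 with both) and RPS7 (0.17 with local centring). RPL22L1 and RPL9 kept their call in 35 of 35 settings, RPS21 in 34 of 34 and RPS25 in 33 of 33. Leaving out 1 array ended the calls of RPL10 (6 arrays), RPL3 (6), RPL21 (5) and RPL37 (4) at log2 changes of 0.19 to 0.33. Of the 85 members 55 were tested in the lit area, 26 had no probe lit on all 8 arrays, and 4 had a lit probe that was not tested.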

Other observations

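Some probes with no ribosomal protein symbol share at least 25 bases with a member probe, 16 in all, of which 7 were tested in the lit area. A probe that shares 42 bases with the RPS12 probe read −0.40, beside −0.32 at RPS12 itself. RPL17 had no tested probe of its own there, and 3 probes that share bases with it read 0.27, 0.41 and 0.80. Single probes overlapping RPL27 and RPL9 read 0.36 and 0.32, and a probe that overlaps RPS10 read −0.20. RPL17, RPL27 and RPS10 were named after their values were seen.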
